A study of Mus musculus with 9 samples.

Results

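Thymic invariant natural killer T (iNKT) cells that lack Med23 and stop at stage 2 were compared with wild type (WT) iNKT cells of the mature stage 3. The 3 Med23-deficient stage 2 libraries and the 3 WT stage 3 libraries were taken by their labels, 6 of the 9 libraries of the series, and every gene with a value above 0 in at least 1 of the 6 was tested, 20846 of 21883. The question put to the table was which parts of the stage 3 programme the arrested cells lack and which they already share. In the Med23-deficient cells 8 of 9 Ly49 receptors, 14 of 18 other receptors and adaptors of natural killer (NK) cells (the gate gene Klrb1c left out) and 9 of 14 cytotoxic genes were lower by at least 2-fold, where 1.48% of all genes were, genes of stage 2 were still high, and genes of cell division were low in both groups compared. The 3 WT stage 2 libraries are given beside them for orientation. The same receptor and cytotoxic lists differed between the WT stages too. In WT stage 3 against WT stage 2, 8 of 8 Ly49 receptors, 14 of 18 other receptors and 8 of 14 cytotoxic genes were higher (1.70% of all genes). Members and lists were chosen with earlier results of these data known, so these counts describe the lists and are no test of them.

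The study follows Med23, a subunit of the Mediator complex that connects transcription factors with RNA polymerase II, in the thymic development of iNKT cells. Med23-deficient mice carried Med23 fl/fl alleles with Cd4-Cre. The paper gives the gene as deleted by the double-positive stage of thymocytes, from which most iNKT cells arise. All groups came from the thymus and are labelled C57BL/6. The WT mice were 6 weeks old, and the labels give no age for the Med23-deficient mice. Cells were sorted as CD24 low, CD1d tetramer+ and CD44 high, with NK1.1 low for stage 2 and NK1.1 high for stage 3. Total RNA went into libraries through a SMARTer stranded pico-input kit. The labels do not say whether the 3 libraries of a group are separate animals, so p-values measure the spread between these samples.

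Med23 itself, in FPKM (fragments scaled to exon length and to mapped fragments of the library), had values of 4.8, 3.6 and 3.92 in Med23-deficient cells and 7.14, 4.44 and 6.12 in WT stage 3, with 5.51, 5.15 and 6.74 in WT stage 2. The Med23-deficient values were on the low side and overlapped WT stage 3, whose replicate 2 lay between them (log2 fold change -0.42, 95% interval -0.93 to 0.09, limma adjusted p = 0.593). A value per gene pools all exons, so it does not show the deleted part. Markers of the label were present: Cd3e, a chain of the T cell receptor (TCR) complex, stood at 128, 115 and 110.1 in the Med23-deficient cells and 138, 129 and 121 in stage 3. Trac, the constant part of the TCR alpha chain, stood at 392, 365 and 330.0 against 376, 351 and 285. Both genes overlapped between the groups. Zbtb16, which encodes PLZF, the transcription factor that directs the iNKT lineage, was present in all 6 libraries. Cd24a, which mature thymocytes lose, was at most 0.72 in any of the 6. Cd44 and Klrb1c, the gene of NK1.1, belong to the gate, and their values are no finding.

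WT stage 3 replicate 2 stood apart from the other libraries. Xist, the RNA of the inactive X chromosome, was at 47.45 FPKM there and at most 0.01 in each of the other 8 libraries, while the summed level of Ddx3y, Eif2s3y, Uty and Kdm5d, genes of the Y chromosome, was 0 there and 23.1 to 34.8 elsewhere. Its division genes were also the highest of stage 3. Many results are therefore given with and without this library, though not those of every list. The labels give no sex.

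Stage 2 iNKT cells divide and make interleukin 4, and the step to stage 3 brings NK receptors, cytotoxic granules and interferon gamma under the control of the transcription factor T-bet and of interleukin 15. Ly49 receptors and the CD94 and NKG2 proteins recognise MHC class I molecules on other cells, and most of them dampen killing. Mature stage 3 cells are long-lived residents of the thymus that rarely divide.

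Across all genes the groups differed in both directions about equally. By a rule of at least 2-fold in size together with a limma p, not adjusted, of no more than 0.05, 289 genes were higher in the Med23-deficient cells (1.39% of those tested) and 308 were lower (1.48%), and these are the genes named as called below. At an adjusted p of at most 0.05 the counts were 147 (0.705%) and 131 (0.628%). The median log2 fold change over all genes tested was 0.00. For 7513 of the 11773 genes with a mean of at least 1 FPKM over the 9 libraries (63.8%), the 95% interval lay wholly within a 2-fold difference. The 3 libraries of each group did not overlap for 2967 genes (14.2%, where chance alone gives 10% for 3 against 3). Without WT stage 3 replicate 2, 295 genes were higher and 331 lower by fold and p, and 76 in place of 278 passed the adjusted p. For comparison, 351 genes were higher (1.70%) and 394 lower (1.90%) in WT stage 3 than in WT stage 2, and 165 were higher (0.798%) and 272 lower (1.32%) in Med23-deficient than in WT stage 2. Intervals within a 2-fold difference were found for 59.5% and 60.8% of the genes with a mean of at least 1 FPKM. Those 2 comparisons share libraries with the first, so the values stand side by side and are not counted as independent of each other. In the scatter of group means, most genes followed the diagonal, most NK receptor genes lay far below it, most stage 2 genes above it, and mitosis genes sat in the corner where both groups are low.

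**Figure D1:**
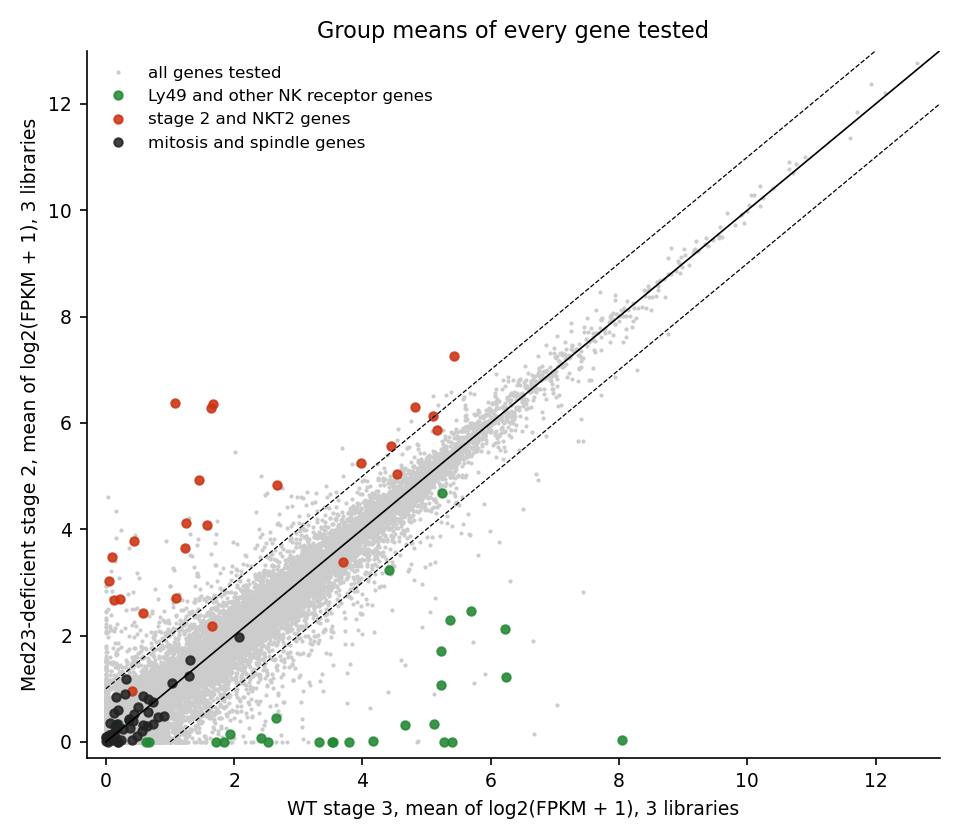
Mean of log2(FPKM + 1) over the 3 libraries of each group, for every gene tested. The solid line marks equal means and the dashed lines a 2-fold difference. Most NK receptor genes (green) are near 0 in Med23-deficient cells and high in WT stage 3, most stage 2 and NKT2 genes (red) lie on the opposite side, and mitosis and spindle genes (black) are low in both groups.

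The Ly49 receptors were close to absent from the arrested cells. Of 9 Klra genes in the table, 8 were lower in the Med23-deficient cells (1.48% of all genes were) and 0 higher, with a median log2 fold change of -3.80 against 0.00 over all genes, or -4.47 over the members above 0 in both groups. Klra9 had 0, 0 and 0.07 FPKM in Med23-deficient cells and 351, 203 and 253 in stage 3. It was the largest decrease in the table, close to 0 in every Med23-deficient library and the most abundant Ly49 gene of every stage 3 library (log2 fold change -8.01, 95% interval -8.51 to -7.51, limma adjusted p = 0.000375). WT stage 2 cells already held some of it, at 13.6, 7.92 and 10.2. Klra5 was listed at 0 in all 3 Med23-deficient libraries and at 41.2, 51.8 and 32.3 in stage 3, with 0.31, 1.06 and 0.33 in WT stage 2. Klra6, Klra7 and Klra8 were likewise listed at 0 in every Med23-deficient library, where stage 3 held 9.73, 9.93 and 12.3 of Klra6, 13.5, 12.6 and 12.6 of Klra7 and 2.06, 2.92 and 1.95 of Klra8. Klra10 stood at 0.11, 0.79 and 0 against 34.03, 34.3 and 32.3 (log2 fold change -4.78). In each of these 6 genes all Med23-deficient libraries were below all stage 3 libraries. Klra3 kept the highest level of the list in the Med23-deficient cells, at 2.84, 4.69 and 4.47 against 57.2, 34.8 and 32.3. The summed level of the 9 genes was 4.85, 5.48 and 6.9 in the Med23-deficient libraries, 547, 394 and 405 in stage 3 and 43.7, 46.2 and 31.7 in WT stage 2. Klra genes are near-identical copies, and the authors counted only reads that hit few places in the genome. Levels of single Klra genes and their sum are therefore uncertain. In bulk samples, fewer cells that carry a transcript and less of it per cell cannot be told apart. Without WT stage 3 replicate 2 the same number, 8, was lower. In WT stage 3 against WT stage 2, 8 of 8 tested Klra genes were higher (1.70% of all genes were). In Med23-deficient against WT stage 2, 3 of 9 were lower (1.32% of all genes were).

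Other NK receptors and their adaptors followed. Of 19 genes, 15 were lower in the Med23-deficient cells and 0 higher (median -2.53, or -2.78 over those above 0 in both groups), and leaving out the gate gene Klrb1c gave 14 of 18. In WT stage 3 against WT stage 2, 15 of the 19 were higher (1.70% of all genes were). In Med23-deficient against WT stage 2, 4 of 17 tested were lower (1.32% of all genes were) and 1 higher. Klrd1, which encodes CD94, stood at 2.72, 1.08 and 0.61 FPKM against 78.03, 77.6 and 68.5 in stage 3. Klrc1, whose product NKG2A pairs with CD94 as an inhibitory receptor, was listed at 0 in all 3 Med23-deficient libraries and at 41.3, 30.2 and 42.2 in stage 3. WT stage 2 held 4.66, 11.04 and 12.8 of Klrd1 and 1.4, 4.8 and 1.55 of Klrc1. For both genes every stage 3 library was far above every Med23-deficient library, and the interval for Klrd1 ran from -5.78 to -4.27 around a log2 fold change of -5.03 (limma adjusted p = 0.00313). Klrk1, the gene of the activating receptor NKG2D, was at 0, 0.46 and 0.33 against 17.5, 28.7 and 28.4, with a log2 fold change of -4.34. Klre1 was listed at 0 in all Med23-deficient libraries and at 9.83, 14.1 and 8.47 in stage 3. Slamf7, a receptor of the SLAM family that binds its own kind on other cells, was present at 3.85, 4.06 and 5.89 against 52.02, 54.1 and 46.2. It was thus low but not absent, at a log2 fold change of -3.22 (limma adjusted p = 0.00149), and WT stage 2 stood at a like level, 6.74, 7.62 and 5.13. Fcer1g, a signalling adaptor of NK receptors, was at 3.8, 1.24 and 2.23 against 38.8, 41.3 and 30.5, and here the Med23-deficient values lay near or above those of WT stage 2, 0.3, 0 and 1.48. Its log2 fold change against stage 3 was -3.53 (limma adjusted p = 0.00844, and 0.0502 without WT stage 3 replicate 2). Tyrobp, the adaptor DAP12, was listed at 0 in the Med23-deficient and WT stage 2 libraries and at 1.15, 5.78 and 2.14 in stage 3. Hcst, the adaptor DAP10 of NKG2D, stood at 18.6, 32.8 and 24.9 against 45.9, 35.2 and 30.4, with overlapping groups and an interval of -1.14 to 0.04. Styk1, a kinase-like gene of NK cells outside the lists and among the 10 largest decreases, was at 0.02, 0 and 0 against 20.3, 31.7 and 34.8. In WT stage 2 it stood at 0.24, 1.79 and 0.86. With any 1 of the 6 libraries left out, the limma adjusted p of Klra9, Klrd1, Klrk1 and Slamf7 stayed at or below 0.0346. The Ballgown-style fit in place of limma took the adjusted p to 0.0596, 0.126, 0.132 and 0.0596, past 0.05 for all 4. Without WT stage 3 replicate 2, 15 of the 19 genes were again lower.

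Cytotoxic genes were lower in part and to different degrees. Of 14 cytotoxic effector genes, 9 were lower in the Med23-deficient cells and 0 higher (median -1.14). In WT stage 3 against WT stage 2, 8 of the 14 were higher (1.70% of all genes were). In Med23-deficient against WT stage 2, 1 of 13 tested was lower (1.32% of all genes were). Gzma, which encodes granzyme A, had 41.4, 29.5 and 17.6 FPKM in stage 3 and was listed at 0 in each Med23-deficient library, with 0, 0 and 1.5 in WT stage 2. Gzmb, granzyme B, stood at 4.2, 7.01 and 7.55 against 149, 211 and 164, a log2 fold change of -4.62 (95% interval -5.18 to -4.06, limma adjusted p = 0.00149). Prf1, the pore protein perforin that lets granzymes into a target, was at 0.43, 0.72 and 0.55 against 17.1, 14.7 and 17.5, a log2 fold change of -3.48. For these genes the Med23-deficient libraries were all below the lowest stage 3 library, and below WT stage 2 as well for Gzmb (11.3, 14.4 and 10.2) and Prf1 (2.01, 3.79 and 2.01). Nkg7, a granule membrane protein, kept a larger share, at 34.6, 65.8 and 54.3 against 194, 159 and 141 and 24.1, 44.9 and 28.2 in WT stage 2. Its log2 fold change against stage 3 was -1.69 (limma adjusted p = 0.0440, and 0.0589 to 0.152 with each of the 6 libraries left out in turn, so the adjusted p was lost without any of them). Srgn, the proteoglycan serglycin that packs granules, stood at 74.8, 88.2 and 58.95 against 71.4, 41.3 and 56.95, with overlapping groups and an interval of -0.18 to 0.98. Lamp1, a membrane protein of lysosomes and granules, was higher in every Med23-deficient library, at 36.6, 26.98 and 25.9 against 16.1, 13.8 and 16.2, without reaching a 2-fold difference (log2 fold change 0.90). Dropping WT stage 3 replicate 2 gave 10 of the 14 lower.

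Signals that mature iNKT cells send out were in part lower. Of 13 cytokine and chemokine ligands, 3 were lower and 0 higher (median -0.15): Ifng, Ccl5 and Xcl1. Of the 13, 5 had an unadjusted limma p of at most 0.05, and 1 ligand counted as higher without Med23-deficient replicate 1 or WT stage 3 replicate 2. Tnfsf14, another ligand of the list, was higher by less than 2-fold (log2 fold change 0.79, limma adjusted p = 0.0234). With a library left out, the limma adjusted p of Tnfsf14 was 0.0538 to 0.105. Ifng, interferon gamma, stood at 2.26, 3.77 and 4.74 FPKM against 25.3, 42.3 and 23.6 in stage 3, a log2 fold change of -2.76 (95% interval -3.50 to -2.03). Ccl5, a chemokine that draws T cells and NK cells, was at 3.58, 4.85 and 4.95 against 41.4, 32.1 and 24.96, a log2 fold change of -2.61. Xcl1, a chemokine that draws cross-presenting dendritic cells, was at 15.8, 11.9 and 16.5 against 47.3, 77.4 and 67.03, a log2 fold change of -2.03. None of the 3 genes overlapped between the groups, and in each the Med23-deficient values lay among or near those of WT stage 2, 1.97, 5.89 and 2.07 for Ifng, 4.2, 10.5 and 7.44 for Ccl5 and 7.23, 17.96 and 9.87 for Xcl1. The limma adjusted p was 0.0178 for Ifng, 0.00844 for Ccl5 and 0.0161 for Xcl1. Leaving out WT stage 3 replicate 2 took it to 0.0555 for Ifng and 0.0601 for Xcl1 and kept Ccl5 at 0.0475. Over each library left out in turn it spanned 0.0385 to 0.0690 for Ifng, at or below 0.05 only without Med23-deficient replicate 3, and 0.0235 to 0.0804 for Xcl1, at or below 0.05 only without Med23-deficient replicate 3 or WT stage 3 replicate 1. Ltb, lymphotoxin beta, was shared, at 51.6, 63.8 and 53.2 against 75.5, 52.3 and 46.04 with an interval of -0.50 to 0.47.

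Transcription factors behind the type 1 programme were in part lower than in stage 3. Of 15 such genes, 5 were lower and 1 higher (median -0.73), and 4 of the 14 with a mean of at least 1 FPKM had an interval within a 2-fold difference. Tbx21, the gene of T-bet, stood at 34.9, 38.1 and 43.6 FPKM in the Med23-deficient cells, 90.7, 62.01 and 66.9 in stage 3 and 37.1, 30.5 and 20.4 in WT stage 2. Every Med23-deficient library was below every stage 3 library, by less than 2-fold on average (log2 fold change -0.88, 95% interval -1.29 to -0.48, limma adjusted p = 0.0913). Zfp683, the gene of Hobit, which keeps lymphocytes resident in tissue, was at 63.4, 55.9 and 85 against 124, 111 and 101 and 47.9, 46 and 48.2, an order again without overlap against stage 3. Runx3, a partner of T-bet, was at 48.8, 55.9 and 56.1 against 76.1, 75.8 and 79.1, with an interval of -0.72 to -0.31. Stat4, which carries the signal of interleukin 12, was at 10.4, 10.8 and 13.9 against 28.7, 24.2 and 28.1, a log2 fold change of -1.15. Hopx, a homeodomain protein of effector T cells, was at 9.52, 7.73 and 9.56 against 18.9, 24.8 and 21.6, and Id2, an inhibitor of E proteins, at 179, 221 and 215 against 482, 413 and 404. For Stat4, Hopx and Id2 the groups did not overlap, and the limma adjusted p was 0.0230, 0.0221 and 0.0220. With a library left out these rose to at most 0.104, 0.0998 and 0.0886: for Hopx and Id2 past 0.05 without any of the 6, and for Stat4 without any but Med23-deficient replicate 3. Id2 also fell short of a 2-fold difference without Med23-deficient replicate 1 or WT stage 3 replicate 1, where the smallest difference was -0.98. Vdr, the vitamin D receptor, went the other way, at 6.35, 7.58 and 6.17 against 1.19, 1.48 and 0.49 (log2 fold change 1.93). Eomes was listed at 0 in all 6 libraries.

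Of receptors through which maturing cells hear cytokines, some were below the stage 3 level and others within a 2-fold difference of it. Of 13, 5 were lower and 1 higher (median -0.39), and 6 had an interval within 2-fold. Il2rb, the beta chain of the receptors for interleukins 2 and 15, stood at 95.7, 138 and 154 FPKM against 302, 283 and 348 and was at 103, 125 and 134 in WT stage 2. Med23-deficient cells thus kept the stage 2 level of Il2rb, below every stage 3 library (log2 fold change -1.29, 95% interval -1.76 to -0.81, limma adjusted p = 0.0454, and 0.0609 to 0.157 with each of the 6 libraries left out). The chains of the interferon gamma receptor moved in opposite directions. Ifngr1, the chain that binds the ligand, was at 22.6, 26.3 and 42.98 against 106, 89.9 and 121, and Ifngr2, the chain that completes signalling, at 4.28, 5.67 and 4.04 against 0, 0 and 0.07. The log2 fold changes were -1.80 and 2.46, neither gene overlapped between the groups, and both Med23-deficient levels were near those of WT stage 2, 24.6, 24.6 and 25.9 for Ifngr1 and 4.78, 2.41 and 5.01 for Ifngr2. Il18rap, a chain of the interleukin 18 receptor, was at 4.99, 5.83 and 10.6 against 24.3, 30.8 and 34.2 and so below WT stage 2 too, 12.9, 15.6 and 13.5. Il2rg, the common gamma chain, was higher in every Med23-deficient library by less than 2-fold, at 149, 182 and 148 against 146, 116 and 118 (interval 0.01 to 0.66). Shared was Tgfbr2, a chain of the TGF-beta receptor, at 31.02, 29 and 30.4 against 31.3, 33.2 and 30.99 (interval -0.26 to 0.11). When WT stage 3 replicate 2 was dropped, 4 of the 13 were lower and 1 higher.

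**Figure D2:**
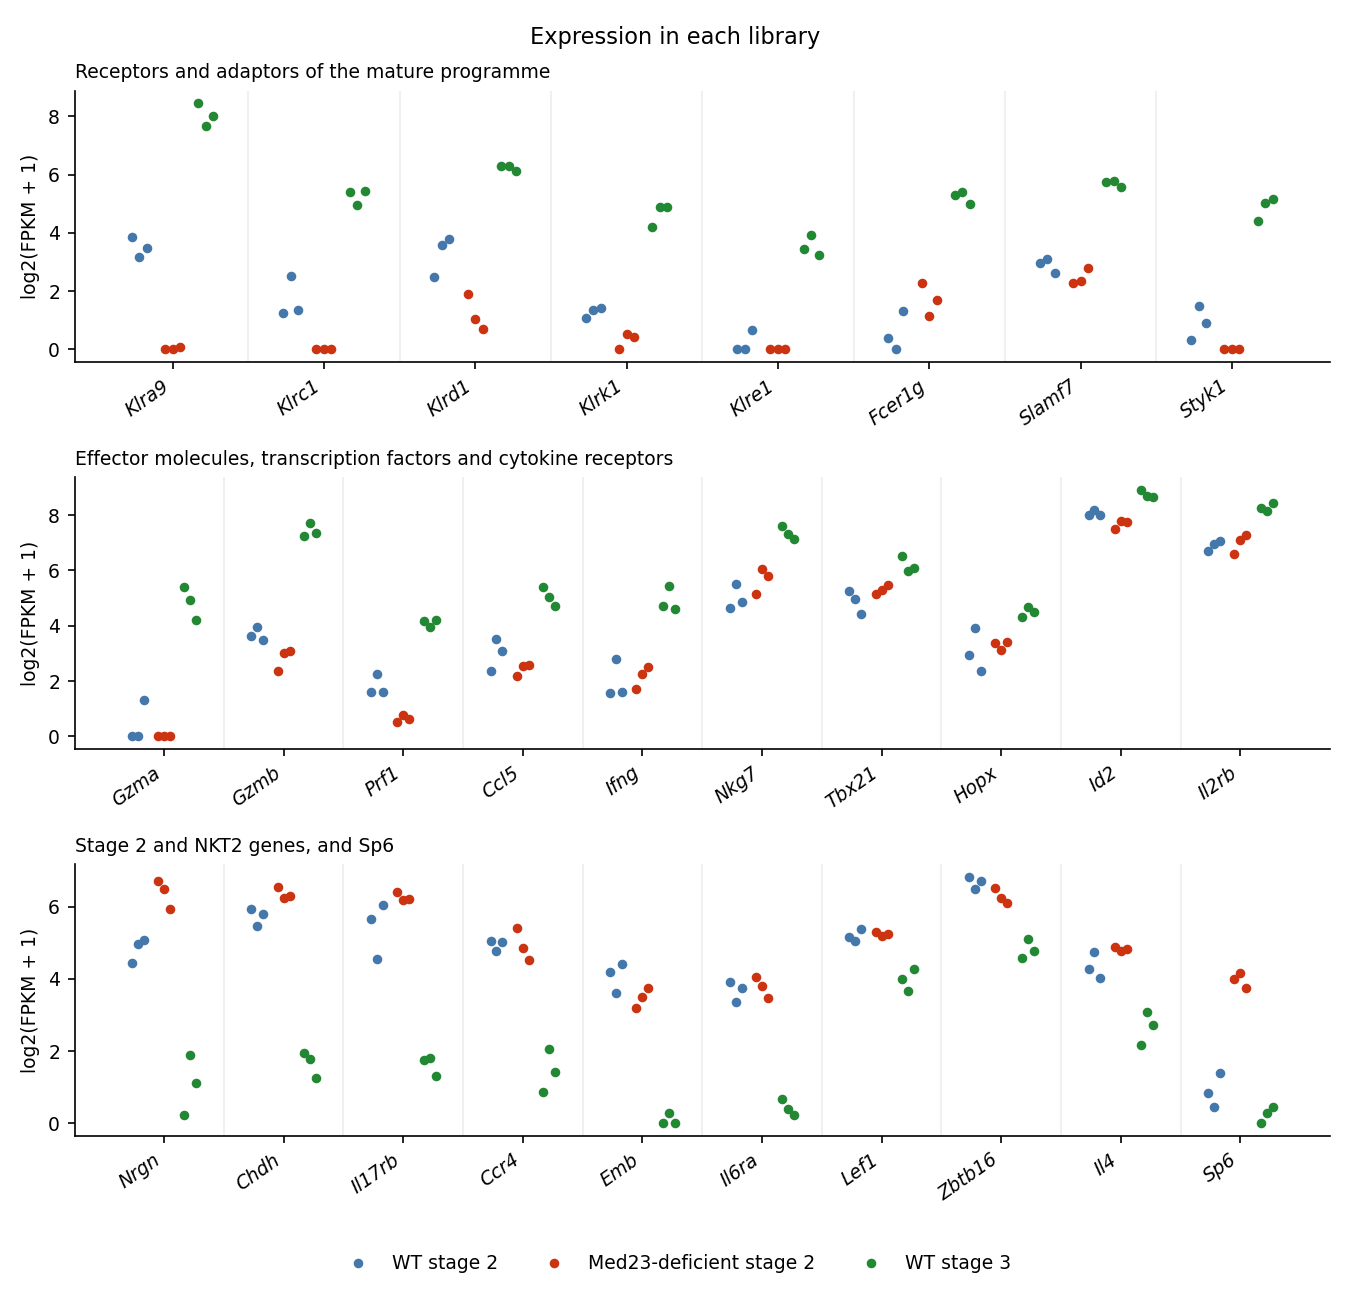
log2(FPKM + 1) of single genes in each of the 9 libraries. Top, receptors and adaptors of the mature programme: the Med23-deficient dots (red) lie at the bottom and the WT stage 3 dots (green) at the top. Middle, effector molecules at left are low in Med23-deficient cells, while Tbx21, Id2 and Il2rb at right are closer to stage 3. Bottom, stage 2 and NKT2 genes are high in Med23-deficient cells and in WT stage 2 (blue), and Sp6 is high in the Med23-deficient libraries alone.

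Genes of stage 2 and of the interleukin 4 producing NKT2 cells were not turned down. Of 26, 20 were higher in the Med23-deficient cells than in stage 3 (1.39% of all genes were) and 0 lower, and the median of their log2 fold changes was 2.01. The list was chosen with earlier results of these data known. Its counts therefore describe the genes and are no independent support. In WT stage 3 against WT stage 2, 21 of the 26 were lower and 1 higher (median -2.45). In Med23-deficient against WT stage 2 the counts were 1 higher and 3 lower (median 0.01). Nrgn, the calmodulin-binding protein neurogranin, stood at 104, 88.4 and 60.2 FPKM against 0.17, 2.69 and 1.17 in stage 3, the largest increase among the genes eligible for naming (log2 fold change 5.30, 95% interval 4.22 to 6.38, limma adjusted p = 0.00844). WT stage 2 held 20.8, 30.4 and 32.8, below each Med23-deficient library. Il17rb, the receptor for interleukin 25, was at 83.6, 72.1 and 73.6 against 2.4, 2.54 and 1.5, and Chdh, choline dehydrogenase, a neighbouring gene, at 91.8, 75.2 and 77.2 against 2.83, 2.44 and 1.41. For both the 3 Med23-deficient libraries stood together high and the 3 stage 3 libraries together low, with log2 fold changes of 4.63 and 4.70. Ccr4, a chemokine receptor of type 2 cells, was at 41.5, 28.01 and 22.2 against 0.84, 3.16 and 1.67. Il6ra, the interleukin 6 receptor, was at 15.7, 12.9 and 10.1 against 0.59, 0.33 and 0.17, and Emb, an adhesion protein of the immunoglobulin family, at 8.1, 10.2 and 12.6 against 0, 0.22 and 0. Their groups did not overlap, and the log2 fold changes were 3.48, 3.34 and 3.38. For Ccr4 the limma adjusted p of 0.0153 passed 0.05 when Med23-deficient replicate 1 or 2 or WT stage 3 replicate 3 was left out (range 0.0368 to 0.0779). Il4 itself stood at 28.5, 26.5 and 27.3 against 3.46, 7.51 and 5.66, and Il13 at 7.7, 7.65 and 6.19 against 0, 0 and 0.09, both without overlap (log2 fold changes 2.17 and 2.99). Among transcription factors, Zbtb16 was at 90.8, 75.2 and 68.1 against 22.7, 33.4 and 26.4, Tcf7, the gene of TCF-1, at 187, 145 and 129.5 against 35.1, 52.6 and 40.3, and Lef1, its relative, at 38.6, 35.1 and 36.5 against 14.8, 11.7 and 18.3. In WT stage 2 they stood at 112, 87.96 and 103, 244, 173 and 195 and 34.96, 32.01 and 40.8, closer to the Med23-deficient values than stage 3 was. The groups compared did not overlap, with log2 fold changes against stage 3 of 1.48, 1.83 and 1.26. Gata3, which directs interleukin 4 production, exceeded both WT groups, at 77.2, 69.7 and 60.7 against 35.3, 31.1 and 33.9 in stage 3 and 35.8, 38.1 and 42.5 in WT stage 2. Its log2 fold change of 1.02 was under 1 without Med23-deficient replicate 1 or WT stage 3 replicate 2 (lowest 0.94). Without WT stage 3 replicate 2, 19 of the 26 were higher. The 6 genes of the list short of the call were Izumo1r, Zbtb7b, Sox4, Il6st, Tgfb3 and Il4ra, with log2 fold changes of 0.71, 0.50, 0.56, 0.53, 0.05 and -0.31. Zbtb7b, the gene of ThPOK, was higher in every Med23-deficient library, at 36.05, 30.6 and 29.8 against 22.5, 21.1 and 23.5, while Il4ra, the interleukin 4 receptor, overlapped at 9.06, 8.26 and 11.4 against 12.97, 10.96 and 12.2.

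The other genes among the 10 largest increases lay outside that list. Sp6, a zinc finger protein of the SP family, had 15.1, 17.02 and 12.5 FPKM in Med23-deficient cells, 0, 0.21 and 0.36 in stage 3 and 0.78, 0.36 and 1.61 in WT stage 2. It was high in the Med23-deficient libraries alone (log2 fold change 3.74 against stage 3, limma adjusted p = 0.00276). Adh1, an alcohol dehydrogenase that oxidises retinol, was at 14.2, 16.04 and 10.3 against 0.37, 0 and 0, with 5.28, 5.51 and 4.34 in WT stage 2. The Med23-deficient libraries were above both WT groups for Adh1, at a log2 fold change of 3.69 against stage 3. Itgb3, the integrin beta 3 chain, was at 41.9, 39.6 and 46.4 against 1.99, 2.72 and 4.88, and Ccr9, the receptor for the thymic chemokine CCL25, at 19.8, 10.6 and 12.3 against 0.75, 0.01 and 0.44. Both were high in WT stage 2 too, at 36.2, 27.6 and 36.6 and 7.4, 8.06 and 16.5. Their log2 fold changes against stage 3 were 3.43 and 3.43, and the limma adjusted p of Ccr9, 0.0116, was 0.0593 without WT stage 3 replicate 3.

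Genes of cell division were low in the arrested cells and in stage 3, both below WT stage 2. Of 45 mitosis and spindle genes, 0 were called in either direction against stage 3, by limma or by the Ballgown-style fit, and 4 had an unadjusted p of at most 0.05 in each. The median log2 fold change was 0.05, beside 0.00 over all genes. In WT stage 3 against WT stage 2, 22 of the 45 were lower (median -0.998), where 1.90% of all genes were. In Med23-deficient against WT stage 2, 20 were lower (median -0.92), where 1.32% of all genes were. At a limma adjusted p of at most 0.05, 5 and 2 of the 45 were lower in these comparisons. Mki67, the gene of the proliferation antigen Ki-67, stood at 4.05, 2.09 and 2.89 FPKM in the Med23-deficient cells, 2.25, 7.47 and 1.69 in stage 3 and 22.2, 29.7 and 34.8 in WT stage 2. Replicate 2 of stage 3 was the highest of the 6 libraries, the others overlapped, and the interval of the difference, -1.27 to 1.08 around -0.10, is wide. Top2a, the topoisomerase that untangles chromosomes, was at 1.5, 1.21 and 1.4 against 0.58, 2.95 and 1.36 and 9.43, 5.21 and 9.2 in WT stage 2 (interval against stage 3 -0.96 to 0.86). Ccnb2, cyclin B2, was at 0, 0.53 and 0 against 0.26, 1.59 and 0 and 7.89, 6.93 and 5.9. In all 3 genes each Med23-deficient and each stage 3 library was below each WT stage 2 library. Bub1, a kinase of the spindle checkpoint, was at 0, 0 and 0.02 and listed at 0 in all stage 3 libraries, and Hmmr, a spindle protein, was listed at 0 in all Med23-deficient libraries and at 0, 0.08 and 0 in stage 3. Summed over the 45 genes, the level was 24.1, 18.99 and 19.6 in the Med23-deficient libraries, 13.7, 33.3 and 13.8 in stage 3 and 103, 103 and 132 in WT stage 2. Stage 3 replicate 2 was thus above the Med23-deficient libraries and the other stage 3 libraries below them. Without it, 0 of 44 were called and the median was 0.08, and the count for WT stage 3 against WT stage 2 was 23. The intervals bound little at such low values. Of the 12 members with a mean of at least 1 FPKM over the 9 libraries, 6 had an interval within a 2-fold difference at a pseudocount of 1, but 0 had at 0.1 or 0.01, and of the 4 with that mean over the 6 libraries compared, 2 had. The 6 fell to 3 without Med23-deficient replicate 3 or WT stage 3 replicate 1, and leaving out Med23-deficient replicate 3 called 1 gene.

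**Figure D3:**
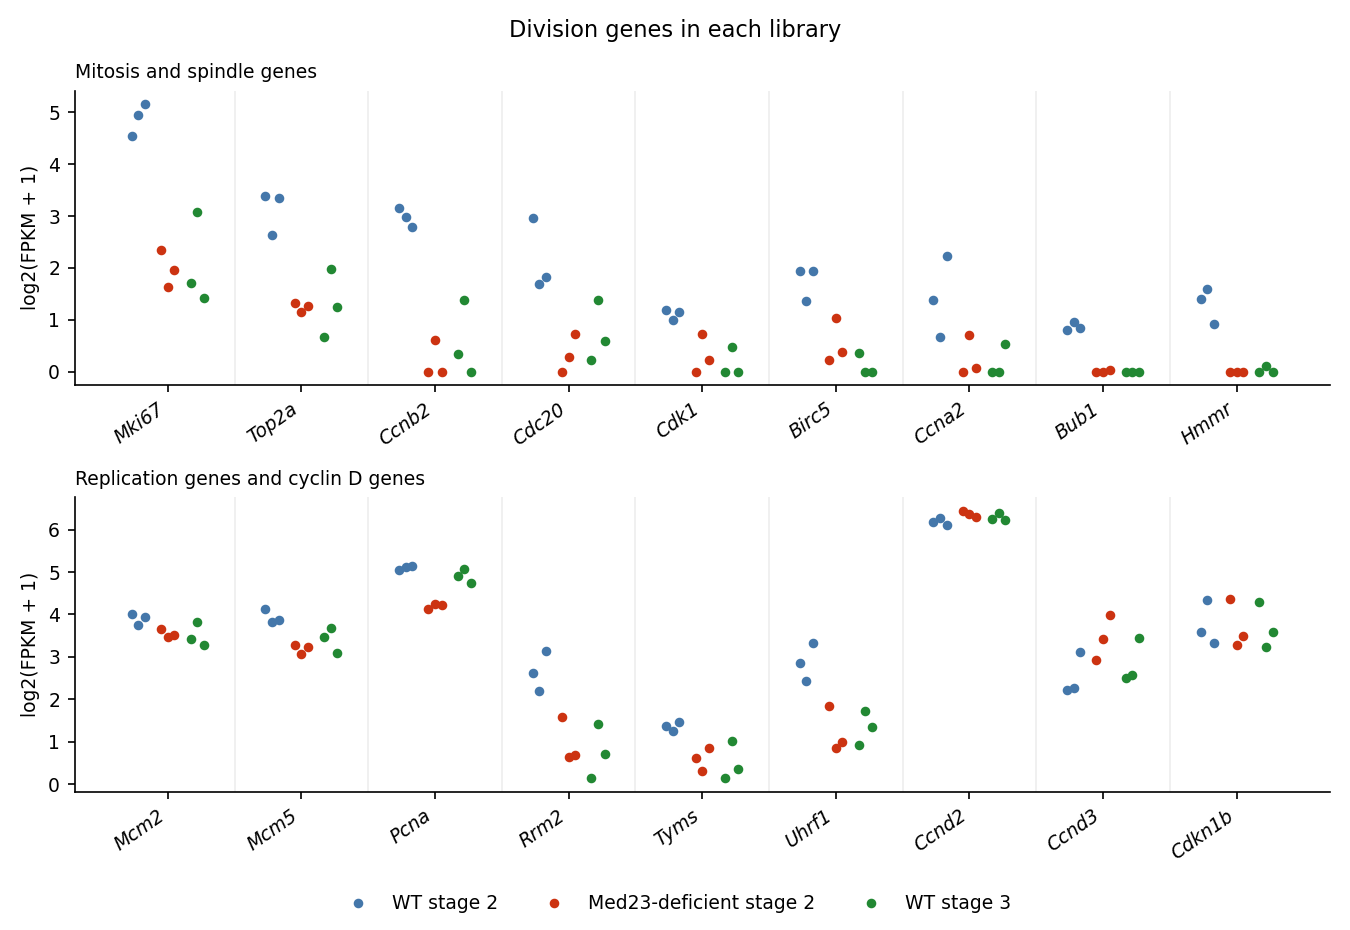
log2(FPKM + 1) of division genes in each library. Mitosis and spindle genes (top) are high in WT stage 2 (blue) and low in Med23-deficient stage 2 (red) and WT stage 3 (green), where the highest green dot is replicate 2 for most genes. Of the genes at the bottom, Pcna is lower in the Med23-deficient libraries than in both WT groups, and Ccnd2 is alike in all 9.

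Promoters were read for the genes of all lists. Of 637 list and marker genes, 433 had a RefSeq promoter window (GRCm38.p6), 250 bases before to 50 after the start. The letters TTTGAA, the core of the CHR element known from cell cycle genes, stood on either strand in 29 of the 37 mitosis and spindle genes with a window (78.4%) and in 20.2% of all 27025 genes with windows, and also in 6 of 9 Ly49 receptor genes (66.7%), which were lower in Med23-deficient cells. The letters CCAAT stood in 27 of the 37 (73.0%), in 9 of 12 type 1 transcription factor genes (75.0%) and in 41.1% of all. Mki67 and Ccnb2 are printed with both in capitals, as genes that are low in Med23-deficient and stage 3 cells. The letters TGANTCA of AP-1 were in 4 of the 14 other NK receptor genes with a window (28.6%), in 1 of 12 cytotoxic effector genes (8.33%), in 5 of 20 interferon response genes (25.0%) and in 8.97% of all. AGGTGTGA, a T-box motif, was in 1 of the 12 cytotoxic effector genes and in 1.48% of all. Klrk1 and Gzmb with AP-1 letters and Nkg7 with the T-box letters in capitals are printed from the genes that Med23-deficient cells express less. A match describes the letters and shows no binding.
Mki67 chr7:135716330-135716629 (- strand): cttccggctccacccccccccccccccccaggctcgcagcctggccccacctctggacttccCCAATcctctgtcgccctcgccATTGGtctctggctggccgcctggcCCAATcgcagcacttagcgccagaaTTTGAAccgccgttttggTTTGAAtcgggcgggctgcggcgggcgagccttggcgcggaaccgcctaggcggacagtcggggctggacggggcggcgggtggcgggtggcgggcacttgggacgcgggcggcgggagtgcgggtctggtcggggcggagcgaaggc
Ccnb2 chr9:70421505-70421804 (- strand): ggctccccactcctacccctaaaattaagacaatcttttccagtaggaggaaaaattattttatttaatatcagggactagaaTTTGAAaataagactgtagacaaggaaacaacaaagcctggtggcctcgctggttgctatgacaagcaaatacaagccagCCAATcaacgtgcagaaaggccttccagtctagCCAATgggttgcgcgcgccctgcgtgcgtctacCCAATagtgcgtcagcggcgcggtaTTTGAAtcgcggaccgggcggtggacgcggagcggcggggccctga
Klrk1 chr6:129623815-129624114 (- strand): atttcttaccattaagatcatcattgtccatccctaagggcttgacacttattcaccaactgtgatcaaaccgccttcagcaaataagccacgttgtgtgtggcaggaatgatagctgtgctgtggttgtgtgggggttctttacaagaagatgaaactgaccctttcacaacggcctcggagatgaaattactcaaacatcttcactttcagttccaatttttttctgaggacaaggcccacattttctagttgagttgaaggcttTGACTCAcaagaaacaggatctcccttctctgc
Gzmb chr14:56262285-56262584 (- strand): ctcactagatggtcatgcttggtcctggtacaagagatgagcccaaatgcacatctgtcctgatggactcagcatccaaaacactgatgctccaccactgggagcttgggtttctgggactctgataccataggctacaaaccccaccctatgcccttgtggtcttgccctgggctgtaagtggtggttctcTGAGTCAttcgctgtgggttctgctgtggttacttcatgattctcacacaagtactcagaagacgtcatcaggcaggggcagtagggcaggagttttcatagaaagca
Nkg7 chr7:43436888-43437187 (+ strand): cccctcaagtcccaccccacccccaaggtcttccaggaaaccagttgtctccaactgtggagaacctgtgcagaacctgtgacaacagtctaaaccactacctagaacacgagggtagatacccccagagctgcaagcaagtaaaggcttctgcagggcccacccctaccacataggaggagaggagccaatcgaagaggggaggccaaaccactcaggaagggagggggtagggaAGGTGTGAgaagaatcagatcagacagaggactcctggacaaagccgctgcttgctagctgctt

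DNA replication genes did not differ past the call, and some histone genes were lower than in stage 3. Of 40 replication and nucleotide synthesis genes, 0 were called against stage 3 by limma or the Ballgown-style fit, 4 had an unadjusted p of at most 0.05 in each, and 20 of the 30 with a mean of at least 1 FPKM lay within a 2-fold difference (66.7%, near the 63.8% of all such genes, median -0.10), with 12 at a pseudocount of 0.1 and 11 at 0.01. Mcm2 and Mcm5, subunits of the helicase that opens DNA, stood at 11.6, 9.98 and 10.5 and at 8.67, 7.4 and 8.46 in Med23-deficient cells, against 9.78, 13.1 and 8.71 and 10.2, 11.8 and 7.54 in stage 3. The groups overlapped, with intervals of -0.37 to 0.44 and -0.65 to 0.21. Pcna, the clamp of DNA polymerase, was lower in every Med23-deficient library, at 16.4, 18.1 and 17.5 against 29.1, 32.4 and 25.5 in stage 3 and 32.3, 33.99 and 34.4 in WT stage 2, by less than 2-fold (log2 fold change -0.71, 95% interval -0.98 to -0.44, limma adjusted p = 0.0508). Of 68 replication-dependent histone genes, 7 were lower than in stage 3 and 0 higher (median -0.50), where 39 were lower in Med23-deficient than in WT stage 2 (median -1.41) and 20 in WT stage 3 than in WT stage 2 (median -0.83). Of all genes, 1.32% and 1.90% were lower in the comparisons with WT stage 2. At a limma adjusted p of at most 0.05, 7 and 1 of the histone genes were lower in them. Hist1h2ae was at 0.66, 1.58 and 1.57 against 7.7, 11.3 and 8.82 and 27.3, 16.1 and 21.8 in WT stage 2, which put it -2.19 on the log2 scale from stage 3. Hist1h1e, a linker histone, was at 125, 104 and 104 against 195, 197 and 172, short of a 2-fold difference (log2 fold change -0.76). For both, the Med23-deficient libraries were the lowest of the 9, and the limma adjusted p was 0.0221 and 0.0408. It passed 0.05 for Hist1h1e without any of the 6 libraries (0.0634 to 0.154) and for Hist1h2ae without any but Med23-deficient replicate 1 (0.0481 to 0.103). The histone count went to 5 when stage 3 replicate 2 was dropped, and to 13 when it was replicate 3 of stage 3. Histone genes are near-identical copies, and the authors counted only reads that hit few places in the genome, so values of the members are uncertain. The list of G1 cyclins and CDK inhibitors also holds Cdk2, Cdk4, Cdk6, Rbl1 and Rbl2. Of its 19 genes, 0 were called by either fit (median 0.07). An unadjusted p of at most 0.05 was found for 6 by limma and 4 by the Ballgown-style fit. Without Med23-deficient replicate 2 or WT stage 3 replicate 3, 1 was higher, and 2 were at a pseudocount of 0.1 or 0.01. Ccnd2, cyclin D2, was alike at 86.2, 81.2 and 77.6 against 75.6, 83.3 and 73.7, with an interval of -0.13 to 0.28.

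Most NKT17 genes, which mark a branch that makes interleukin 17, were low in the Med23-deficient cells and in stage 3. Of 14 tested, 1 was higher and 0 lower (median 0.02). Of the 11 with a mean of at least 1 FPKM over the 9 libraries, 6 lay within a 2-fold difference at a pseudocount of 1, 2 at 0.1 and 1 at 0.01, and 3 had that mean over the 6 libraries compared, 2 of them within it. The summed level, most of it Maf, was 42.4, 49.1 and 44.4 in Med23-deficient cells and 35.5, 39.6 and 27.7 in stage 3, higher in every Med23-deficient library. WT stage 2 held more of them: of 15 tested against it, 11 were lower in WT stage 3 (median -1.56) and 10 in the Med23-deficient cells (median -1.66). Of all genes, 1.90% and 1.32% were lower in these comparisons. At a limma adjusted p of at most 0.05, 6 and 2 of the 15 were lower. Il1r1, the interleukin 1 receptor, was at 0.06, 0.1 and 0.03 FPKM against 0.03, 0.12 and 0 in stage 3 and 2.23, 4.23 and 5.01 in WT stage 2, and Blk, a Src family kinase, was listed at 0 in the Med23-deficient cells against 0.09, 0.22 and 0 and 6.76, 6.12 and 4.53. Sdc1, syndecan 1, was at 0, 0 and 0.03, listed at 0 in all stage 3 libraries, and at 5.94, 4.49 and 5.84 in WT stage 2. In all 3 genes both groups were near 0 and WT stage 2 was not. Nrp1, neuropilin 1, was the exception, at 14.99, 13.2 and 9.88 against 3.71, 2.69 and 2.6 (log2 fold change 1.77, limma adjusted p = 0.0206), near its level in WT stage 2, 11.6, 10.2 and 10.4. That adjusted p passed 0.05 without any library but Med23-deficient replicate 3 (0.0357 to 0.0889).

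The narrowest intervals among the list genes belonged to genes listed at or near 0 FPKM in both groups. Bub1, Sdc1, Ccnd1, Hmmr, Batf3, Nuf2, Ltb4r1, S1pr5, Hist1h2aa and Il17re were each listed at 0 in every library of 1 group and at no more than 0.12 FPKM in any library of the other. Among genes with a mean of at least 1 FPKM over the 9 libraries, a group taken after the values were seen, Sdc1, Il1r1 and Blk reached that mean through WT stage 2 alone and were near 0 in both groups compared, while Tgfbr2, Itgb7, Zap70, Runx3, Trav11, Ccnd2 and Jund were narrow at a sizeable level. Itgb7 and Zap70 were higher in every Med23-deficient library (intervals 0.12 to 0.50 and 0.02 to 0.41) and Runx3 and Jund lower in every one, all 4 by less than 2-fold. Trav11, the variable segment of the invariant TCR alpha chain, was at 135, 121 and 137 against 142, 138 and 132 with an interval of -0.27 to 0.14.

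Some genes were low in the arrested cells though both WT stages express them. Of 13 genes of the TCR gamma locus, 10 were lower than in stage 3 and 0 higher (median -3.01, or -4.63 over those above 0 in both groups), 7 of 12 tested were lower than in WT stage 2, and 0 were lower in WT stage 3 than in WT stage 2 (2 were higher). Tcrg-C2 was at 1.48, 0.23 and 0.41 FPKM against 138, 132 and 121 in stage 3 and 134, 124 and 119 in WT stage 2. Trgv2 was at 0, 0 and 0.34 against 112, 112 and 81.5 and 99.9, 111 and 70.3, and Tcrg-C1 at 3.31, 0.83 and 5.47 against 99.6, 103 and 97.3 and 98.8, 125 and 111. The Med23-deficient libraries were far below both WT groups for all 3, with log2 fold changes against stage 3 of -6.33, -6.53 and -4.76. The limma adjusted p was 0.00113, 0.000457 and 0.0115, the last past 0.05 with any stage 3 library left out (highest 0.0644). Without WT stage 3 replicate 2, 12 of the 13 were lower. Trdc, the constant part of the TCR delta chain, was at most 0.38 in any of the 6 libraries. Itgae, the gene of CD103, an integrin chain that holds lymphocytes to epithelium, stood at 4.93, 7.63 and 9.49 against 67.4, 85.4 and 82.98 and 36.3, 63.6 and 40.4 in WT stage 2. Here too the Med23-deficient libraries were below both WT groups (log2 fold change -3.28, 95% interval -3.84 to -2.73, limma adjusted p = 0.00501). Itga4 and Itgb1, the chains of the integrin VLA-4, were at 0.46, 0.57 and 0.44 and 14.1, 12.4 and 15.4 against 5.82, 5.58 and 4.92 and 55.97, 48.7 and 46.7, both lower without overlap (log2 fold changes -2.11 and -1.78). For Itga4 the limma adjusted p, 0.0129, was past 0.05 with any stage 3 library left out (highest 0.0671). Over the 21 homing, egress and adhesion genes, 4 were lower and 2 higher (median -0.05). Shared was Cxcr3, a chemokine receptor of type 1 cells, at 48.03, 48.7 and 39.8 against 51.4, 46.6 and 43.2 (interval -0.33 to 0.23). S1pr1, the receptor that guides exit from the thymus, was higher at 9.36, 7.7 and 10.1 against 3.27, 1.38 and 2.41 (log2 fold change 1.62, limma adjusted p = 0.0536).

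**Figure D4:**
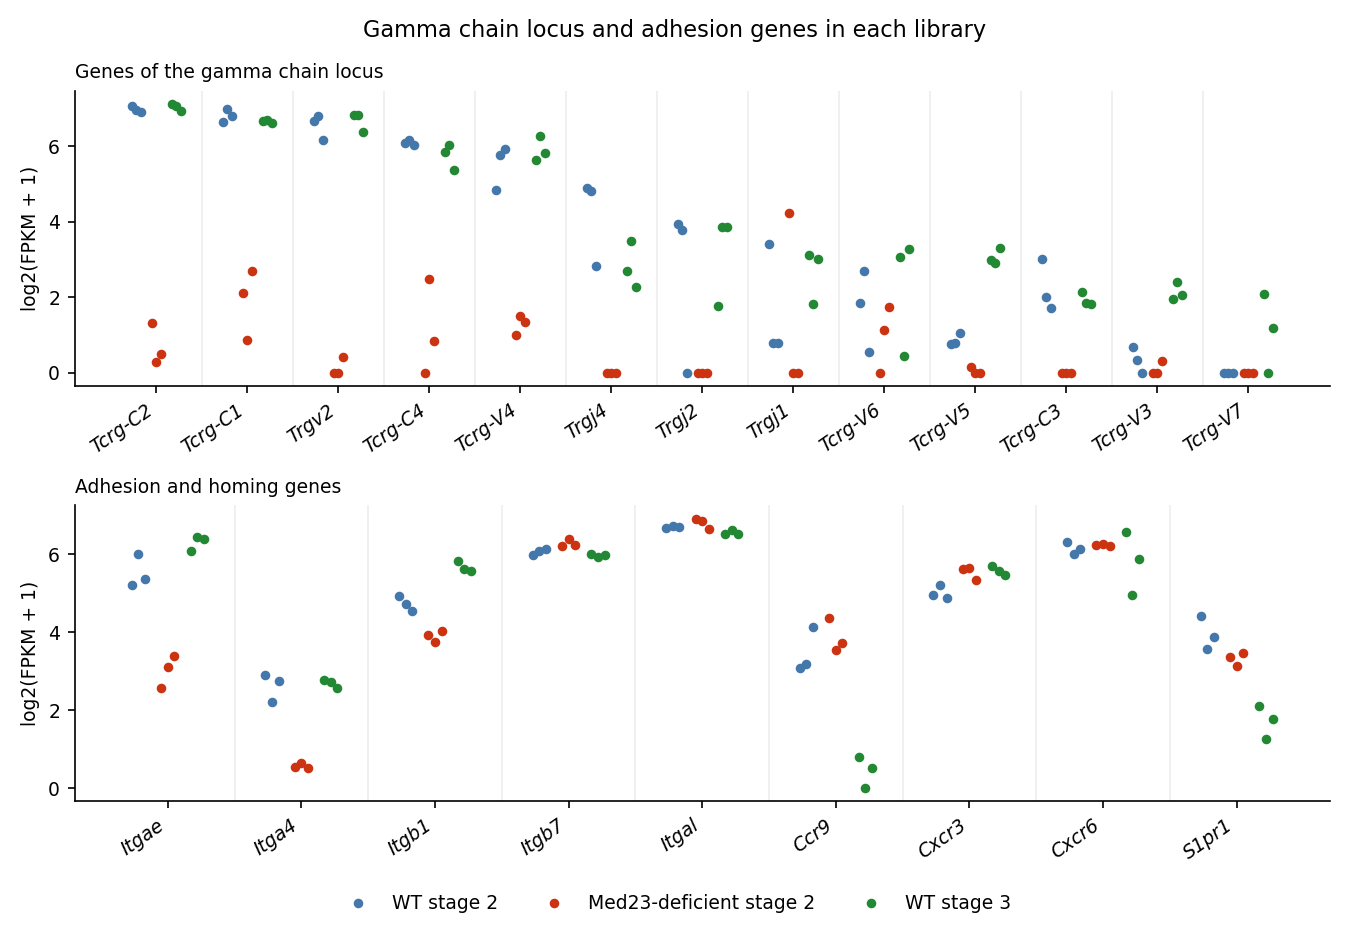
log2(FPKM + 1) in each library for the TCR gamma locus (top) and for adhesion and homing genes (bottom). The Med23-deficient dots (red) are low for the constant genes and Trgv2, and for Itgae, Itga4 and Itgb1, where both WT stages (blue and green) are high. Ccr9 and S1pr1 are high in Med23-deficient and WT stage 2 cells, and Cxcr3 is alike in Med23-deficient and WT stage 3 cells.

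Genes of the general machinery of the cells were seldom called. Of all genes tested 1.39% were called higher and 1.48% lower, and 63.8% of those with a mean of at least 1 FPKM lay within a 2-fold difference, so few calls are due in a short list. Of 33 Mediator subunit genes, 0 were called by limma or the Ballgown-style fit (3 and 4 with an unadjusted p of at most 0.05) and 24 of 32 lay within a 2-fold difference (75.0%, median -0.01). Of 85 cytosolic ribosomal protein genes, 0 were called by either fit (1 with an unadjusted p of at most 0.05 in each) and 81 of 84 lay within it (96.4%, median 0.02). For 60 nuclear genes of oxidative phosphorylation, 0 were called by either fit (2 and 1 with an unadjusted p of at most 0.05) and 52 of 59 lay within it (88.1%, median -0.02). Of 19 glycolysis genes 1 was higher (median 0.10), a call lost without Med23-deficient replicate 2 and in the Ballgown-style fit. Of 28 interferon response genes 1 was higher (median 0.24), with 4 without WT stage 3 replicate 1 (median 0.39), 2 without Med23-deficient replicate 2 and 3 at a pseudocount of 0.1. Among 19 genes of iNKT identity and TCR signalling, 1 was higher, 0 were lower and 13 lay within a 2-fold difference (68.4%, median 0.21). The higher gene was Cd5, a brake on TCR signals, at 108, 106 and 73.8 against 47, 37.2 and 38.01 (log2 fold change 1.20), near its level in WT stage 2, 101, 71.3 and 94.4. Lck, the kinase that starts the TCR signal, was alike at 115, 126 and 114 against 122, 104 and 93.04, with an interval of -0.12 to 0.45. Of 9 AP-1 genes, 0 were called by either fit (1 with an unadjusted p of at most 0.05 in each, median -0.35), and 1 was lower without Med23-deficient replicate 2 or WT stage 3 replicate 1. Jund, the most abundant of them, was at 126, 144 and 127 against 168, 172 and 164, lower in every Med23-deficient library by less than 2-fold (interval -0.55 to -0.14). Fos varied widely, at 3.81, 20.9 and 8.24 against 10.7, 22.5 and 32.96, and its interval of -2.65 to 0.48 bounds little. The list of Egr, Nr4a and dual-specificity phosphatase genes also holds Tnfaip3, Nfkbia and Zfp36. Of its 17 genes, 2 were higher and 1, Tnfaip3, was lower (median -0.18). These calls hung on single libraries: 0 were higher and 3 lower without WT stage 3 replicate 1, 2 and 0 without its replicate 2, 2 and 2 without its replicate 3, 1 and 1 without Med23-deficient replicate 1, 1 and 2 without its replicate 2, and 1 and 0 in the Ballgown-style fit.

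**Figure D5:**
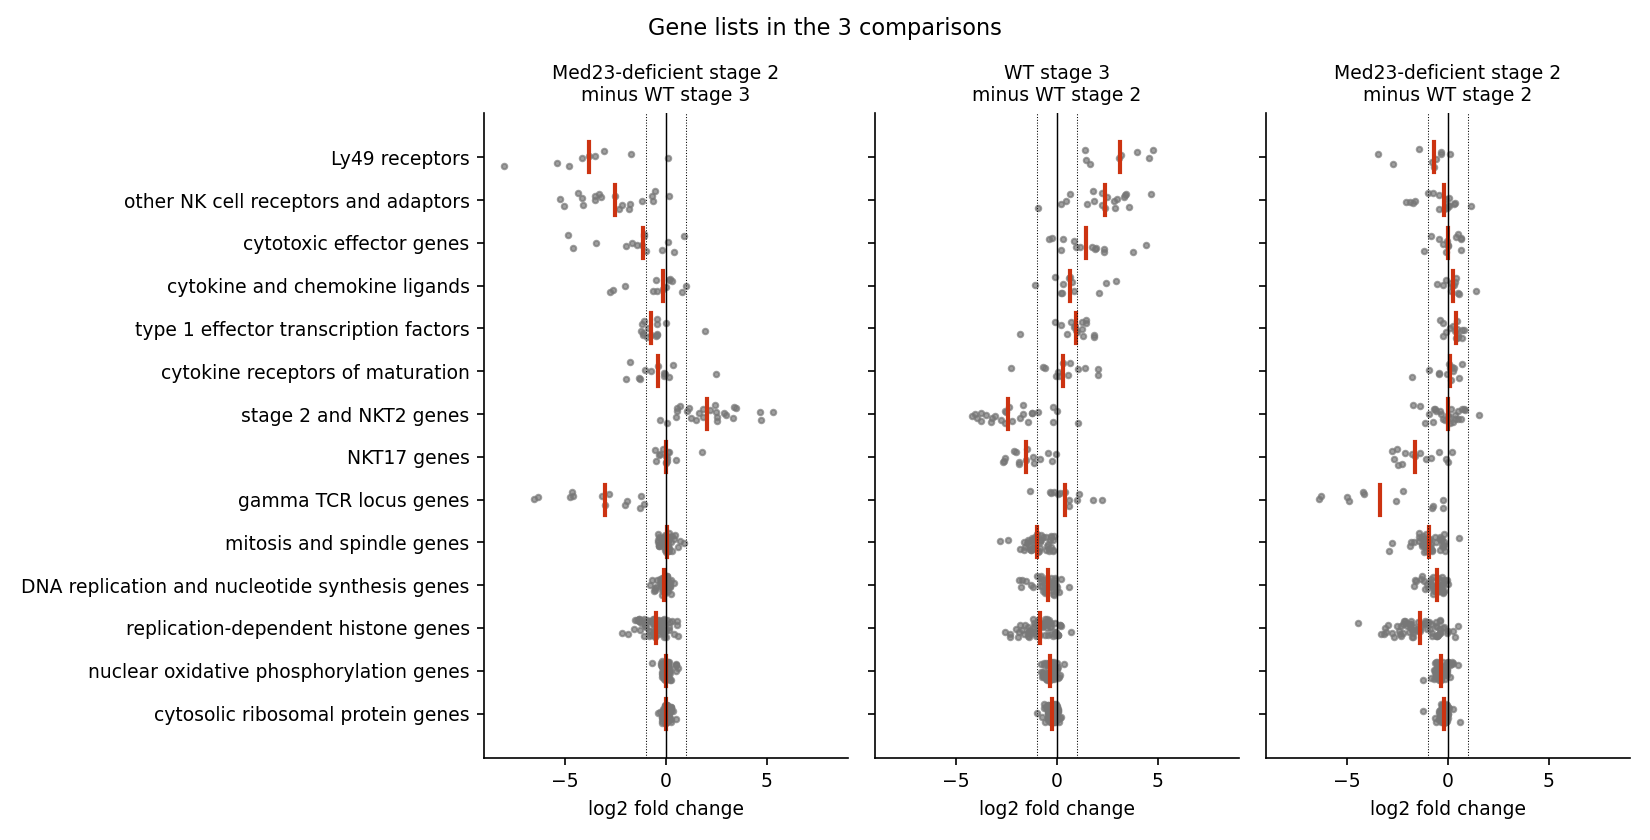
log2 fold change of each tested member of 14 gene lists (grey dots) with the list median (red bar), in Med23-deficient stage 2 against WT stage 3 (left) and, beside it, WT stage 3 against WT stage 2 (middle) and Med23-deficient against WT stage 2 (right). Dotted lines mark a 2-fold difference. The comparisons share libraries. At left, NK receptor and gamma locus genes are shifted down, stage 2 and NKT2 genes up, and mitosis, replication and NKT17 genes centre on 0.

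Markers of other cells that a sort could hold were mostly near 0. For double-positive thymocytes all 8 markers were in the table and their summed level was 4.01, 1.07 and 3.91 FPKM in Med23-deficient cells and 3.48, 5.29 and 3.0 in stage 3, with Ptcra at 0 in every Med23-deficient library. Of 8 B cell markers 5 were in the table. Their sum was 104, 90.4 and 85.6 against 55.1, 50.7 and 46.9, nearly all of it Ighm, the constant region of the IgM heavy chain. Ighm was higher in every Med23-deficient library (log2 fold change 0.87), while Cd79a, Cd79b and Igkc were listed at 0 in all 3 of them. Of 9 myeloid markers 5 could be tested, and the sum was at most 2.33 in any of the 6 libraries, with Cd68 the most abundant. For NK cells without a TCR, 4 of 5 markers were in the table, with sums of 4.28, 4.17 and 5.73 against 4.95, 8.75 and 6.81. Of the 3 tested, 2 were lower (median -1.30), Irf8 at 0.06, 0.16 and 0.81 against 1.81, 2.58 and 2.29 and Klra8, listed at 0 in the Med23-deficient libraries. Itga2, the most abundant, was higher in every Med23-deficient library by less than 2-fold, and Eomes was at 0 in all 6 libraries. For gamma-delta T cells, 5 of 6 were in the table, with sums of 9.11, 8.7 and 8.91 against 295, 299 and 259, and Tcrg-C2 was the largest member in stage 3. Of the 5, 3 were lower and 1 higher: Sox13, a transcription factor, at 4.32, 2.69 and 2.1 against 1.31, 0.98 and 0 (log2 fold change 1.24), a call lost without Med23-deficient replicate 1 or WT stage 3 replicate 3. Of the 4 regulatory T cell markers, Ikzf2 was the most abundant and Foxp3 was listed at 0 in all 6 libraries, with sums of 10.1, 8.92 and 14.7 against 13.04, 10.9 and 8.65. Il2ra, the alpha chain of the interleukin 2 receptor, was higher at 3.66, 3.4 and 6.57 against 0.7, 0.84 and 0.42 (log2 fold change 1.71, limma adjusted p = 0.0697). The 1 erythroid marker in the table, Hbb-bs, was at 0 in the Med23-deficient libraries and at most 0.75 in stage 3, and the sum of the 4 thymic stroma markers in the table was at most 1.07, with Epcam the most abundant. Where these sums differ between the groups, their part in the results was not tested.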

How the data were processed

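The deposited table gives gene values in FPKM, which the authors made from trimmed reads (Trimmomatic 0.36) aligned to mm10 with HISAT2 and assembled with StringTie. Only reads that hit few places in the genome were counted. Read depth per library is not given. Values were used as log2(FPKM + 1). Genes above 0 in at least 1 of the 6 libraries compared were fitted with limma 3.58.1 in R 4.3.3 (eBayes with a trend), and p-values were adjusted over all genes tested by the Benjamini-Hochberg method. The script was tested on simulated data. Figures and promoter searches used Python 3.11.15, numpy 2.4.6, pandas 2.3.3 and matplotlib 3.10.9. Named were members of 22 gene lists and 9 marker lists, the 10 largest increases and 10 largest decreases past an adjusted p of 0.05 without overlap between groups and with a mean of at least 1 FPKM, the 10 narrowest intervals, and Med23. Members and lists were chosen with earlier results of these data known. Models without a gene name (Gm or Rik symbols) were left out of the naming. Alternatives were other pseudocounts, scalings, filters and fits, a replicate block, and each library left out. No gene set test was made. Some members of the lists are not reported here.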

Additional observations from a re-analysis of the deposited data

How the results depend on the processing

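The number of genes called by fold and p in Med23-deficient stage 2 against WT stage 3 was 597 (289 higher, 308 lower) with a pseudocount of 1. It moved to 1221 (638 higher, 583 lower) at a pseudocount of 0.1 and to 1211 (625 higher, 586 lower) at 0.01. The number past the adjusted p, 278, depended on the fit and on each library. It was 18 in a Ballgown-style fit and 42 when replicate number entered as a block, and with 1 library left out it ranged from 72 (without WT stage 3 replicate 3) to 174 (without Med23-deficient replicate 3), with 76 without WT stage 3 replicate 2, 95 without WT stage 3 replicate 1, 112 without Med23-deficient replicate 1 and 121 without Med23-deficient replicate 2. Correlations between libraries of a shared replicate number, with group means taken off, were 0.05, 0.04 and 0.27 and so not all above 0.1, so the numbers were not read as pairs and the paired values are given as an alternative. Of 79 list or named genes past the adjusted p, 34 stayed past it in all 6 fits with a library left out, 31 in some and 14 in none, and no gene called in either fit changed sign. Genes within a 2-fold difference numbered 5782 to 7772 beside 7513. The count of mitosis and spindle genes called was 0, with 5 at a pseudocount of 0.1, 3 at 0.01 and 0 to 1 with 1 library left out. Histone genes lower numbered 7, with 11 at each of the smaller pseudocounts, 12 among genes with a mean of at least 1 FPKM, 4 in the Ballgown-style fit and 5 to 13 with 1 library left out, the most without WT stage 3 replicate 3. Counts by fold and p for the Ly49, other NK receptor, cytotoxic, stage 2 and gamma locus lists differed by less than 1.5 times in all alternatives. In that order, their counts past the adjusted p were 8, 12, 6, 17 and 9. The Ballgown-style fit took these to 1, 0, 0, 1 and 1, and the replicate block to 5, 6, 3, 4 and 3. With 3 libraries a group, a missed threshold does not show equal levels, the groups may differ in age, and the gate on NK1.1 separates the groups by itself.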

Other observations

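Further members of the lists followed the same split. Fasl, the ligand that kills through Fas, stood at 17.9, 14.6 and 35.7 FPKM in Med23-deficient cells against 49.5, 59.6 and 68.1 in WT stage 3, lower without overlap (log2 fold change -1.43). Klrc2, which encodes the activating receptor NKG2C, was at 0, 0.02 and 0 against 11.3, 18.5 and 23.1, and Itga1, the integrin chain of collagen-bound resident cells, at 6.58, 2.87 and 8.36 against 33.1, 32.6 and 36.8. Both were lower in every Med23-deficient library, with log2 fold changes of -4.16 and -2.43. Runx2, a relative of Runx3, was at 0.46, 0.56 and 0.64 against 2.23, 2.88 and 2.72, and Il12rb2, a chain of the interleukin 12 receptor, at 13.96, 17.4 and 25.9 against 50.3, 44.96 and 51.6, again without overlap (log2 fold changes -1.21 and -1.36). On the side of stage 2, Tnfsf11, the cytokine RANKL, was at 18.7, 15.2 and 15.6 against 2.28, 0.98 and 1.04, with 17.8, 13.3 and 8.61 in WT stage 2, Ccr7, a chemokine receptor, at 8, 3.6 and 5.13 against 0, 0.11 and 0.17, and Id3, an inhibitor of E proteins, at 17.1, 10.7 and 8.12 against 1.75, 2.05 and 0.54. All 3 were higher in every Med23-deficient library, with log2 fold changes of 2.88, 2.54 and 2.41. Igfbp4, a binding protein of insulin-like growth factors, was in between, at 7.16, 4.62 and 4.73 against 0.35, 0.18 and 0 in stage 3 and 15.5, 19.2 and 27.8 in WT stage 2.

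Among the remaining lists, calls were few, and 2 of the 3 given here were lost when 1 library was left out. Ldhb, a lactate dehydrogenase chain, was at 2.92, 8.09 and 3.92 FPKM against 1.03, 1.11 and 1.84 in stage 3 (log2 fold change 1.28), and the call was lost without Med23-deficient replicate 2, where the difference was 0.93. Tnfaip3, a brake on NF-kappa B, was at 10.1, 18.4 and 20.4 against 23.9, 47.4 and 60.4 (log2 fold change -1.34), a call lost without WT stage 3 replicate 2. Over the fits that each left out 1 library, its difference ranged over -1.71 to -1.04. Oasl2, an interferon-induced gene, was at 4.32, 7.58 and 5.16 against 1.97, 1.58 and 1.66, higher without overlap (log2 fold change 1.26).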
